A study of Mus musculus with 14 samples.

Results

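The genes described here are the 3 TAM receptor tyrosine kinases, Axl, Mertk and Tyro3, their 2 protein ligands, Gas6 and Pros1, and the growth factor Csf1 with its receptor Csf1r. They were chosen by name, and all 7 were found among the 46983 genes of each of the 2 deposited tables. RNA had been sequenced from mouse brain and from cultured cells to compare libraries labelled Qk-KO with libraries labelled WT. Qk encodes quaking, an RNA-binding protein of myelinating glia. In the corpus callosum, the large white-matter tract between the hemispheres, 4 libraries labelled Qk-KO came from Plp-CreERT2 mice with both Qk copies floxed. The 4 libraries labelled WT came from Plp-CreERT2 mice with 1 floxed and 1 intact copy. All of these mice were FvB/C57BL6 hybrids that received tamoxifen at 8 weeks, and tissue was taken 4 days later. The Plp promoter is known to drive the Cre recombinase in oligodendrocyte-lineage cells. In culture, neural stem cells of the same hybrid strain at passages 7, 12 and 13 were differentiated toward oligodendrocytes. Triiodothyronine (50 ng/ml) and IGF-1 (100 ng/ml) were added to a Neurobasal medium with B-27 and GlutaMAX-I. There were 3 cultures labelled Qk-KO and 3 labelled WT, and each passage gave 1 culture of each label. All 3 labelled Qk-KO carry 40HT in their description and all 3 labelled WT carry EtOH, so the treatment and the genotype cannot be told apart there.

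TAM receptors sit on phagocytes and glia and recognize dying cells and membrane debris through a bridge. Gas6 and Pros1, which are vitamin K-dependent secreted proteins, bind phosphatidylserine on the debris at one end and the receptor at the other. Mertk and Axl drive uptake of the bound material and dampen inflammatory signalling, and Tyro3 is the family member best known from neurons and oligodendrocytes. Csf1r is the receptor that keeps microglia, the resident macrophages of the brain, alive, and its ligands are Csf1 and Il34. In white matter both pathways are known for the clearing of myelin debris and for the upkeep of the microglia that do it.

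The library columns of both tables hold fitted means of a model with genotype as its only term, with none for passage, so every library of a genotype has the same fitted level once scaled to its total. Levels are therefore given once per genotype as fitted CPM, which is the fitted count scaled to the library's fitted total, and no spread between libraries can be shown. Errors are the standard errors (SE) of the log2 fold change in the authors' deposited table, always as labelled Qk-KO minus WT. A gene passed at an adjusted p under 0.05 in the DESeq2 Wald test of that table. The fitted counts of a callosum library came to 15048646 at the lowest and 27666519 at the highest, and those of a culture to 38325833 and 48912999. Qk itself, counted over the whole gene, had 907 CPM in callosum libraries labelled Qk-KO and 713 CPM in those labelled WT (log2 0.32 ± 0.12 SE, adjusted p = 0.162 in the authors' deposited table). In culture it had 3277 CPM in libraries labelled Qk-KO and 1972 CPM in those labelled WT (log2 0.66 ± 0.14 SE, adjusted p = 4.19e-05 in the authors' deposited table). Total Qk RNA was thus not lower under the Qk-KO label. Reads outside the floxed part count toward it, so it is no check on the labels.

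In the callosum, 4 of the 7 genes rose in libraries labelled Qk-KO and none fell. They were Csf1, Csf1r, Axl and Pros1, with folds between 1.63 and 2.06. In culture the calls went the other way. There 4 of the 6 tested genes fell and none rose, namely Axl, Mertk, Pros1 and Csf1. Axl, Pros1 and Csf1 thus passed in both systems, in opposite directions, while Tyro3 and Gas6 passed in neither. The share of all genes that passed in both systems, or in opposite directions, is not given here. How unusual this overlap is therefore cannot be read from it. Over all 19935 genes tested in callosum, 2.09% rose and 0.231% fell, which is 2.32% called in either direction. Over all 17503 genes tested in culture, 13.3% rose and 15.2% fell, 28.6% in all. The median log2 change of the 7 genes was 0.70 in callosum, against -0.01 over all tested genes, and that of the 6 genes tested in culture was -0.85, against 0.01. The genes were picked as a family with earlier results known, so these shares are set beside the background and not tested against it.

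The start regions of the 3 genes that passed in both systems are shown because they are the ones that moved in opposite directions. Each line holds the 250 bases before the RefSeq start site (build GRCm38.p6), 5′ to 3′ on the gene's own strand. Capitals mark the GC box letters GGGCGG, or CCGCCC on the other strand, where neighbouring boxes may overlap, and in Pros1 also the GAS letters TTCNNNGAA, a STAT factor motif, whose letters are the same on both strands. The Axl region is chr7:25788734-25788983 on the minus strand, the Pros1 region chr16:62854057-62854306 on the plus strand and the Csf1 region chr3:107760470-107760719 on the minus strand.
Axl: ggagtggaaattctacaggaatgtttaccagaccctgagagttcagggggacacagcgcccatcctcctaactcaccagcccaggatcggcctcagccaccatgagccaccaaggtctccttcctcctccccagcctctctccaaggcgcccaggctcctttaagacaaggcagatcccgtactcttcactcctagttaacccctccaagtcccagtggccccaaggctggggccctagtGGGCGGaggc
Pros1: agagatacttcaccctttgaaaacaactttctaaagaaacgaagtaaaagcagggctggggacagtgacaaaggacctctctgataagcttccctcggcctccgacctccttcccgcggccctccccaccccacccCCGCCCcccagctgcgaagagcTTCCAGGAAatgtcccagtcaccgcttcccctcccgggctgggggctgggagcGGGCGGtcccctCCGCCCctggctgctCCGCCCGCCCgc
Csf1: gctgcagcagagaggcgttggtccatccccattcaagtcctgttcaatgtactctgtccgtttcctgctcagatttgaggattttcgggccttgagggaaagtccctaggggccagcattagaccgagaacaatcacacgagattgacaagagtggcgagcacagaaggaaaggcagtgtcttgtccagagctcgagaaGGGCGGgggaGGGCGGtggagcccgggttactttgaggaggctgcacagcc
Axl held 1 GC box, Csf1 2 and Pros1 5, and Mertk, Tyro3 and Gas6 held 3, 3 and 4. All 6 regions matched in the RefSeq table thus held at least 1, as did 32.7% of the 32851 regions of that length. The GAS letters occurred once, in Pros1, and in 7.02% of all regions. None of the 6 held the AP-1 letters TGANTCA, the TATA box TATAAA, the CCAAT box CCAAT or the E box CACGTG, searched on both strands. These elements occurred in 6.75%, 12.4%, 33.8% and 6.02% of all regions. The GC share was 60.0% in Axl, 64.4% in Pros1 and 56.4% in Csf1, against a median of 52.4% over all regions, and 73.2% in Tyro3. The genes that passed and those that did not both carried GC boxes, so this feature did not separate them.

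**Figure D1:**
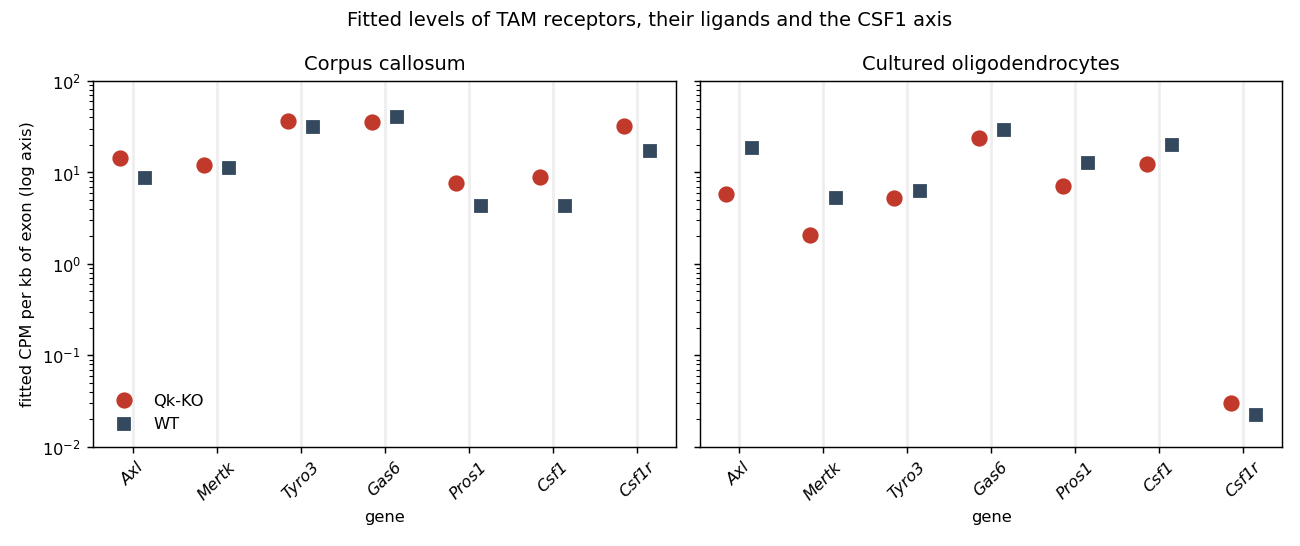
Fitted level of each gene, in CPM per kb of exon on a log axis, in libraries labelled Qk-KO (red circles) and WT (dark squares), for corpus callosum on the left and culture on the right. Each point is 1 fitted value for all libraries of a genotype, so it carries no error bar. Csf1r stands at 31.8 under the Qk-KO label and 17.1 under the WT label in callosum, and at 0.0301 and 0.0224 in that order in culture.

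Of the TAM receptors, Axl was the only 1 that rose in callosum. Axl (ENSMUSG00000002602.16, chromosome 7, 25757273 to 25788705, minus strand, GRCm38) is a receptor that is induced on activated phagocytes. Its fitted level was 72.3 CPM in callosum libraries labelled Qk-KO and 43.7 CPM in those labelled WT. The log2 change was 0.70 ± 0.12 (SE, n = 4 libraries per genotype), a 1.63-fold rise with a 95% interval of 1.38 to 1.92 (adjusted p = 1.47e-06 in the authors' deposited table). In culture Axl had 29.0 CPM in libraries labelled Qk-KO and 93.9 CPM in those labelled WT. Axl fell by 1.77 ± 0.17 log2 units there (SE, n = 3 libraries per genotype, adjusted p = 2.00e-23 in the authors' deposited table), the strongest fall of the 7 genes.

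Mertk (ENSMUSG00000014361.5, chromosome 2, 128698956 to 128802894, plus strand) is the TAM receptor that astrocytes and microglia use for engulfment. In callosum it had 52.8 CPM in libraries labelled Qk-KO and 48.4 CPM in those labelled WT. Its log2 value was 0.10 ± 0.15 with an interval from -0.18 to 0.39 (SE, adjusted p = 1.00 in the authors' deposited table), which ends below the 0.70 of Axl. In culture Mertk had 9.09 CPM in libraries labelled Qk-KO and 22.9 CPM in those labelled WT. Mertk fell by 1.41 ± 0.18 log2 units (SE, adjusted p = 1.77e-13 in the authors' deposited table). The 95% interval ran from -1.76 to -1.06.

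Tyro3 (ENSMUSG00000027298.17, chromosome 2, 119797733 to 119818104, plus strand) had the highest counts of the family in callosum. Its level there was 224 CPM in libraries labelled Qk-KO and 195 CPM in those labelled WT, with a log2 value of 0.18 ± 0.25 (SE, adjusted p = 1.00 in the authors' deposited table). In culture it had 32.9 CPM in libraries labelled Qk-KO and 38.5 CPM in those labelled WT, with a log2 value of -0.31 ± 0.30 (SE, adjusted p = 0.493 in the authors' deposited table). The intervals, -0.31 to 0.67 in callosum and -0.88 to 0.27 in culture, leave room for changes of moderate size in either system. The callosum SE is large for a gene with a mean of 4241 normalized counts, since the median SE over all tested genes was 0.19.

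Per kb of exon, the order of the receptors differed between the systems. In callosum it was Tyro3, Axl, Mertk in libraries labelled Qk-KO, at 36.2, 14.4 and 12.2 CPM per kb. In callosum libraries labelled WT it was Tyro3, Mertk, Axl, at 31.4, 11.2 and 8.69 CPM per kb. In culture Axl led in both groups, followed by Tyro3 and Mertk. Axl, Tyro3 and Mertk had 5.77, 5.30 and 2.10 CPM per kb in cultures labelled Qk-KO, and 18.7, 6.21 and 5.27 CPM per kb in cultures labelled WT. Axl therefore made up 43.8% of the summed receptor level in cultures labelled Qk-KO and 61.9% in cultures labelled WT. In callosum the same share was 22.9% in libraries labelled Qk-KO and 16.9% in those labelled WT. No error can be put on a fitted level, so neighbours in these orders were not tested against each other.

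Of the ligands, Pros1 changed in both systems and Gas6 in neither. Pros1 (ENSMUSG00000022912.8, chromosome 16, 62854307 to 62929346, plus strand) encodes protein S, also known as an anticoagulant cofactor in plasma. In callosum it had 31.5 CPM in libraries labelled Qk-KO and 17.5 CPM in those labelled WT. Pros1 rose by 0.82 ± 0.15 log2 units (SE, 1.77-fold, adjusted p = 3.35e-06 in the authors' deposited table). In culture it had 29.3 CPM in libraries labelled Qk-KO and 51.6 CPM in those labelled WT. Pros1 fell by 0.89 ± 0.26 log2 units there (SE, adjusted p = 0.00337 in the authors' deposited table). Its interval in culture, -1.40 to -0.38, was the widest among the 4 genes that fell.

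Gas6 (ENSMUSG00000031451.5, chromosome 8, 13465374 to 13494490, minus strand) is the ligand that binds all 3 receptors. In callosum it had 90.3 CPM in libraries labelled Qk-KO and 102 CPM in those labelled WT (log2 -0.20 ± 0.12 SE, adjusted p = 0.788 in the authors' deposited table). In culture it had 61.3 CPM in libraries labelled Qk-KO and 74.2 CPM in those labelled WT (log2 -0.35 ± 0.27 SE, adjusted p = 0.371 in the authors' deposited table). Gas6 was the only 1 of the 7 genes with a negative value in callosum, and its interval there, -0.44 to 0.03, holds no rise beyond 0.03. Per kb of exon Gas6 stood above Pros1 in every group. Gas6 and Pros1 had 35.4 and 7.72 CPM per kb in callosum labelled Qk-KO, and 40.1 and 4.29 CPM per kb in callosum labelled WT. In cultures labelled Qk-KO they had 24.1 and 7.18 CPM per kb, and in cultures labelled WT 29.1 and 12.6 CPM per kb. Pros1 thus made up 17.9% of the ligand sum in callosum labelled Qk-KO and 9.66% in callosum labelled WT, but 23.0% in cultures labelled Qk-KO and 30.2% in cultures labelled WT.

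Csf1 had the largest rise of the 7 genes in callosum, and its receptor Csf1r rose with it. Csf1 (ENSMUSG00000014599.10, chromosome 3, 107741048 to 107760469, minus strand) had 47.0 CPM in callosum libraries labelled Qk-KO and 22.5 CPM in those labelled WT. Csf1 rose by 1.04 ± 0.15 log2 units, which is 2.06-fold with a 95% interval of 1.68 to 2.52 (SE, adjusted p = 7.84e-10 in the authors' deposited table). Csf1r (ENSMUSG00000024621.15, chromosome 18, 61100598 to 61132149, plus strand) had 184 CPM in callosum libraries labelled Qk-KO and 98.7 CPM in those labelled WT. Csf1r rose by 0.87 ± 0.16 log2 units, 1.83-fold with an interval of 1.48 to 2.28 (SE, adjusted p = 5.66e-06 in the authors' deposited table). In bulk tissue, more cells that express a gene and more of its RNA per cell cannot be told apart. Which cells carried the rises of Csf1 and Csf1r was not tested.

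In culture the ligand was abundant and the receptor close to absent. Csf1 had 64.7 CPM in cultures labelled Qk-KO and 107 CPM in cultures labelled WT. Csf1 fell by 0.80 ± 0.14 log2 units (SE, adjusted p = 1.09e-07 in the authors' deposited table). Csf1r had 0.174 CPM in cultures labelled Qk-KO and 0.130 CPM in cultures labelled WT, or 5 to 8 fitted counts in any library. Its mean of 6.61 normalized counts lay below the 8.52 from which the table adjusts p-values. The log2 value of 0.34 ± 0.67 (SE, unadjusted p = 0.608 in the authors' deposited table) has an interval from -0.97 to 1.66, so no difference was detectable at this depth.

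**Figure D2:**
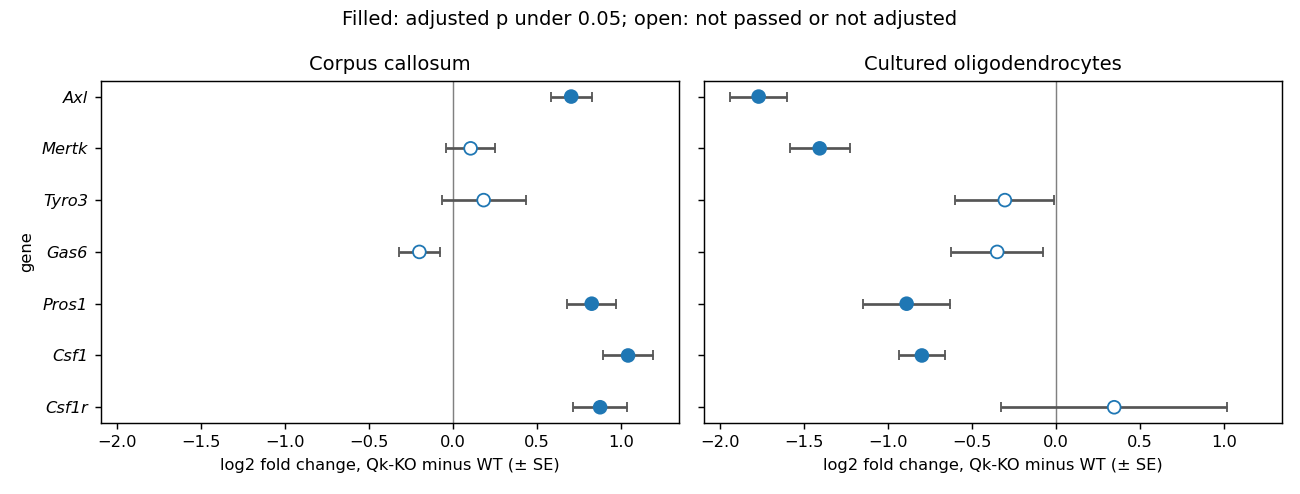
Log2 fold change of each gene, labelled Qk-KO minus WT, with bars of 1 SE from the authors' deposited table, for callosum on the left and culture on the right. Filled points passed an adjusted p under 0.05. Csf1, Csf1r, Pros1 and Axl lie right of 0 in callosum, and Axl, Mertk, Pros1 and Csf1 lie left of 0 in culture.

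The difference between the systems was tested directly for the 6 genes tested in both tables, as callosum minus culture, with a z test on the deposited folds and their SE. It passed for 4 of the 6 genes with Benjamini-Hochberg adjustment over 16601 genes, of which 21.5% passed, 11.7% with a value above 0. The difference was 2.47 ± 0.21 log2 units for Axl (SE, z test adjusted p = 1.34e-29) and 1.84 ± 0.20 for Csf1 (SE, z test adjusted p = 1.58e-17). Pros1 differed by 1.71 ± 0.30 (SE, z test adjusted p = 2.53e-07) and Mertk by 1.51 ± 0.23 (SE, z test adjusted p = 3.14e-09). Mertk belongs here although it did not pass in callosum. Tyro3, at 0.49 ± 0.39 (SE, z test adjusted p = 0.422), and Gas6, at 0.15 ± 0.30 (SE, z test adjusted p = 0.795), did not pass. All 6 differences were above 0. The tables were normalized separately, so this test used only folds and not levels. Orders and shares per kb of exon were formed within each system and were not tested between systems.

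The callosum changes stood beside higher markers of microglia. For the counts that follow, the shares over all genes tested in callosum were 2.09% higher and 0.231% lower. Of 14 microglia markers, none of which is among the 7 genes, 9 rose and none fell, with a median log2 change of 0.91. Their summed level was 623 CPM in libraries labelled Qk-KO and 289 CPM in those labelled WT. Trem2, a lipid-sensing receptor, rose by 1.98 ± 0.23, Fcrls by 1.62 ± 0.21 and the complement gene C1qc by 1.58 ± 0.21 log2 units (SE, the authors' deposited table). P2ry12 (0.18 ± 0.13) and Tmem119 (0.10 ± 0.15), markers of resting microglia, were among the 5 that did not pass (SE, the authors' deposited table). Cx3cr1 (0.83 ± 0.15) and Gpr34 (0.68 ± 0.19), from the same list, did rise (SE, the authors' deposited table). Csf1r at 0.87 and Axl at 0.70 fell within the spread of these markers, which ran from 0.10 to 1.98. The callosum ranges of astrocyte markers (-0.03 to 2.06) and oligodendrocyte markers (-0.44 to 1.12) hold both values too. Those of the other marker lists do not. Border macrophage markers, among them Mrc1 (0.13 ± 0.26) and Cd163 (-0.10 ± 0.26), passed in 0 of 6 tested cases (SE, the authors' deposited table; 0 at an unadjusted p under 0.05), with a sum of 19.6 CPM under the Qk-KO label and 18.2 CPM under the WT label. Of 8 astrocyte markers, Gfap (2.06 ± 0.19) and Aqp4 (0.69 ± 0.18) rose (SE, the authors' deposited table), and their list sum was 5769 CPM under the Qk-KO label and 4610 CPM under the WT label. Of 7 oligodendrocyte markers, Mog (1.12 ± 0.15) and Mag (0.94 ± 0.17) rose (SE, the authors' deposited table), with a list sum of 7656 and 7230 CPM in that order. No marker passed among 5 of precursors, 6 of endothelial and mural cells and 5 of neurons, where 3, 2 and 1 had an unadjusted p under 0.05. The part of cell numbers in the changes of the 7 genes was not tested.

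In culture the falls stood beside lower markers of astrocytes, and 8 of 14 microglia markers had any reads. Here the shares over all tested genes were 13.3% higher and 15.2% lower, so counts from short lists say little. Of 8 astrocyte markers, 6 fell and none rose, with a median of -1.65. Their summed level was 4055 CPM in cultures labelled Qk-KO and 13195 CPM in cultures labelled WT. The glutamate transporter gene Slc1a2 fell by 2.12 ± 0.27 log2 units, Slc1a3 fell by 2.08 ± 0.21 and Gfap fell by 3.37 ± 0.29 (SE, the authors' deposited table). Axl at -1.77 and Mertk at -1.41 lay between Aqp4 (-1.22 ± 0.22) and Slc1a3 in that order of falls (SE, the authors' deposited table). Aldoc (-0.39 ± 0.16) and Sox9 (-0.41 ± 0.19) did not pass, and Aldh1l1 passed at -0.47 ± 0.13 (SE, the authors' deposited table). C1qa, C1qb, C1qc, Fcrls, Itgam and Trem2 had no reads in any culture, and Cx3cr1, Ptprc, Siglech and Tmem119 had 0.00626 to 0.0320 CPM. P2ry12 (0.502 CPM labelled Qk-KO, 2.17 CPM labelled WT) and Sall1 (22.7 and 33.3 CPM in that order) did have reads and fell. Gpr34 had 0.433 and 0.349 CPM and did not pass, and Aif1 had 0.0248 and 0.0701 CPM. The microglia list summed to 23.7 CPM under the Qk-KO label and 36.0 CPM under the WT label, most of it from Sall1. Border macrophage markers summed to 1.45 and 1.78 CPM in that order, with Pf4 and Ms4a7 at 0. Neuron markers rose in 4 of 5 cases, with a list sum of 234 CPM under the Qk-KO label and 49.7 CPM under the WT label. Of 7 oligodendrocyte markers 1 rose and 1 fell, summing to 2288 CPM under the Qk-KO label and 2953 CPM under the WT label. Of 5 precursor markers 2 rose and 2 fell, and of 3 tested endothelial and mural markers 2 fell, with Cldn5 and Ly6c1 at 0. Whether the share of astrocytes differed between the labels was not tested, nor was its part in the falls of Axl, Mertk, Pros1 and Csf1.

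**Figure D3:**
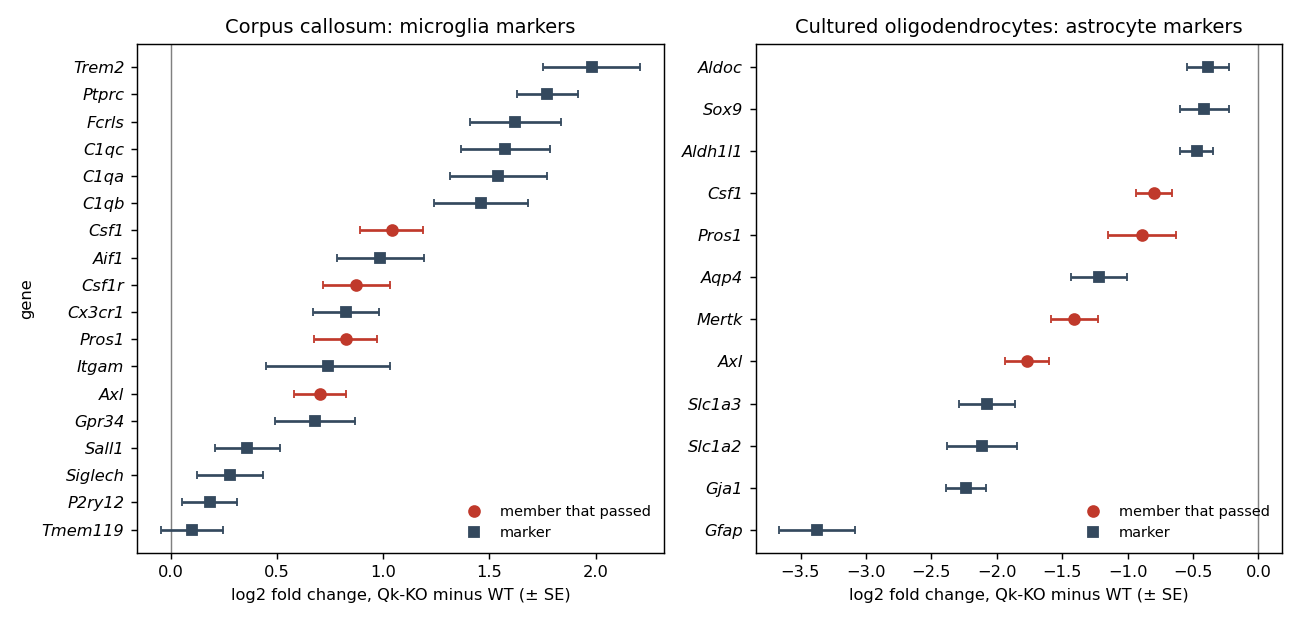
Log2 fold change, labelled Qk-KO minus WT, with bars of 1 SE from the authors' deposited table. The left panel sets the 4 genes that rose in callosum (red circles) among microglia markers (dark squares), and the right panel sets the 4 that fell in culture among astrocyte markers. The red circles lie within the spread of the markers in both panels. In callosum the astrocyte markers (-0.03 to 2.06) and oligodendrocyte markers (-0.44 to 1.12), not drawn there, span the circles as well.

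Genes around the receptors were read from 5 lists. Of 16 genes of the CSF1 receptor pathway, 6 rose in callosum and none fell, with a median of 0.57. Among all genes tested there, 2.09% rose and 0.231% fell. Tyrobp, the adaptor of Trem2, rose by 2.24 ± 0.19, and the myeloid transcription factors Irf8 and Spi1 rose by 1.49 ± 0.17 and 1.30 ± 0.27 log2 units (SE, the authors' deposited table). The lipid phosphatase gene Inpp5d rose by 0.81 ± 0.17 (SE, the authors' deposited table), as did Pik3cg and Plcg2. Il34, the second Csf1r ligand, had 24.6 CPM in libraries labelled Qk-KO and 23.8 CPM in those labelled WT, with a log2 value of 0.02 ± 0.26 (SE, adjusted p = 1.00 in the authors' deposited table). Pik3r1, a ubiquitous kinase subunit, had 0.10 ± 0.11 (SE, the authors' deposited table). Tyrobp, Irf8, Spi1 and Inpp5d are myeloid genes, while Grb2, Sos1 and Cbl, adaptors used in most cells, did not pass and had values from -0.02 to 0.08. In culture 13 of the 16 were tested, and 1 rose and 3 fell, with a median of -0.02. That count is close to the 28.6% called among all genes tested in culture. Pik3cd rose by 1.10 ± 0.38, and Plcg2, Dok1 and Cbl fell by 1.26 ± 0.32, 0.85 ± 0.25 and 0.53 ± 0.15 (SE, the authors' deposited table). Spi1, Tyrobp and Inpp5d were not tested there, at 0.00403 to 0.0394 CPM, and Il34 had 0.499 CPM under the Qk-KO label and 0.798 CPM under the WT label.

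Of the related class III receptor kinases and myeloid growth factors, 2 of 9 tested genes rose in callosum, with a median of 0.07. These were the cytokine receptors Csf3r, by 1.33 ± 0.20, and Csf2rb, by 1.27 ± 0.34 log2 units (SE, the authors' deposited table). Among all genes tested in callosum, 2.09% rose. The kinases Kit (-0.01 ± 0.17), Flt3 (-0.38 ± 0.21), Pdgfra (0.07 ± 0.09) and Pdgfrb (0.14 ± 0.10), relatives of Csf1r, did not pass (SE, the authors' deposited table). In culture 1 of 7 tested genes passed, where 28.6% of all tested genes were called. Kitl, the Kit ligand, rose by 0.78 ± 0.30 (SE, adjusted p = 0.0347 in the authors' deposited table).

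Among 21 tested genes of apoptotic cell recognition and engulfment, 2 rose in callosum and none fell, with a median of 0.14, where 2.32% of all tested genes were called. Lgals3, a galectin that also binds Mertk, rose by 1.85 ± 0.31 and the integrin gene Itgb5 by 0.85 ± 0.14 log2 units (SE, the authors' deposited table). The abundant Lrp1 had 0.12 ± 0.14 and Mfge8, another phosphatidylserine bridge, had -0.04 ± 0.14 (SE, the authors' deposited table). In culture 10 of 19 tested genes fell and 2 rose, with a median of -0.60, where 28.6% of all tested genes were called. The counts of the 2 systems were not tested against each other. The lipid scavenger receptor gene Cd36 fell by 5.14 ± 0.30, the lipid exporter gene Abca1 by 1.85 ± 0.20, Sirpa by 1.47 ± 0.12 and Dock1 by 1.11 ± 0.12 log2 units (SE, the authors' deposited table). The astrocytic engulfment receptor gene Megf10 fell by 0.76 ± 0.15 and its adaptor gene Gulp1 by 1.20 ± 0.32, while Mfge8 had -0.09 ± 0.15 (SE, the authors' deposited table). Cd47, which signals against uptake, rose by 0.67 ± 0.15 and Scarb1 by 0.44 ± 0.18 (SE, the authors' deposited table). Rac1, the most abundant that did not pass, had -0.27 ± 0.12 (SE, the authors' deposited table). Lgals3 and Itgb5, which rose in callosum, fell in culture by 1.25 ± 0.49 and 0.64 ± 0.16 (SE, the authors' deposited table).

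The vitamin K cycle, which carboxylates Gas6 and Pros1, gave 1 call. None of 5 genes passed in callosum (median 0.01), where Vkorc1l1 had -0.08 ± 0.12 (SE, the authors' deposited table). Of these 5, 0 had an unadjusted p under 0.05. In culture Ggcx, the carboxylase gene, fell by 0.67 ± 0.16 (SE, adjusted p = 2.74e-04 in the authors' deposited table), and Vkorc1l1 had 0.12 ± 0.14. Among all tested genes, 2.32% were called in callosum and 28.6% in culture. Of the genes for TAM receptor shedding and signalling, 1 of 10 rose in callosum. This was Socs3, an inhibitor of cytokine signalling, at 0.71 ± 0.22 (SE, adjusted p = 0.0475 in the authors' deposited table), with Ptpn11 at 0.18 ± 0.14. In culture 2 of 11 rose and 1 fell, a count close to the 28.6% called among all genes tested in culture. Tub, whose protein can bridge to Mertk, rose by 1.58 ± 0.14, Nfkbia by 0.51 ± 0.17, and the shedding protease gene Adam17 fell by 1.37 ± 0.14 log2 units (SE, the authors' deposited table). Ptpn11 had 0.41 ± 0.23 there (SE, the authors' deposited table). Medians of this list were 0.10 and 0.09.

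**Figure D4:**
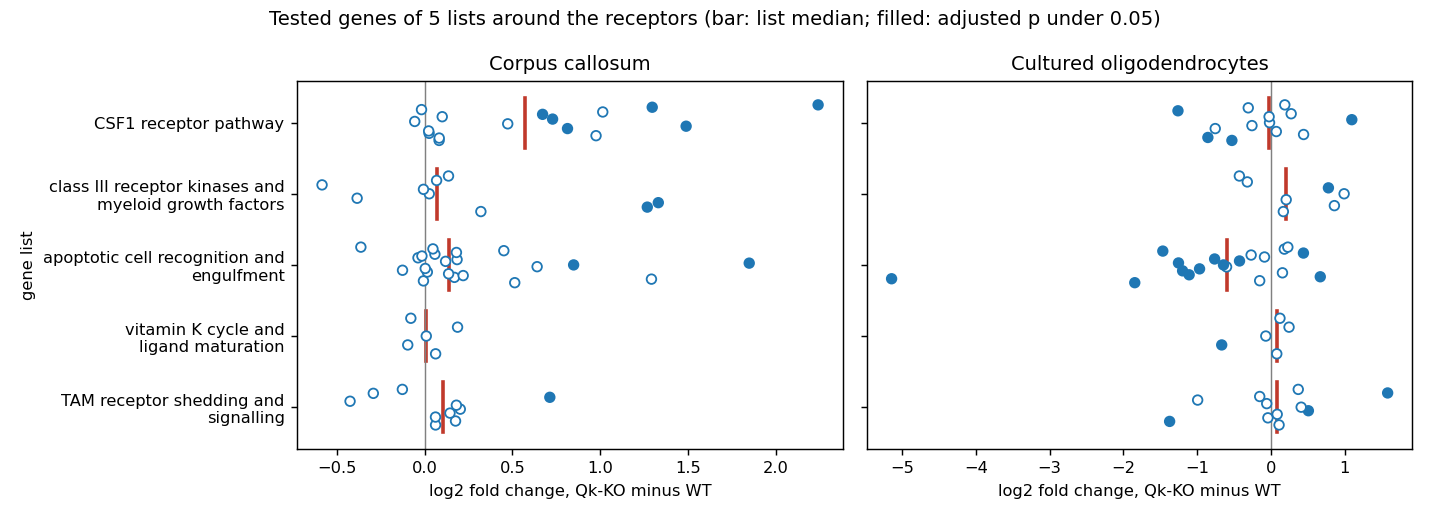
Log2 fold change, labelled Qk-KO minus WT, of the tested genes of the 5 lists, in callosum on the left and culture on the right, with separate horizontal axes. Each point is 1 gene, filled where it passed, and the red bar is the list median. The list of apoptotic cell recognition and engulfment has its median at 0.14 in callosum and at -0.60 in culture.

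Genes with the most similar pair of folds were sought among 10444 genes with a mean of at least 100 in both tables, by Euclidean distance over 2 values, the callosum and the culture fold. Nearest to Axl were Frmd4b (distance 0.09 log2 units), S1pr3 (0.14) and Dnase2a (0.17). Among those nearest to Csf1 were Grn (0.11), a lysosomal gene, and Flnc (0.12). Pros1 lay nearest to Parp3 (0.07), Sytl2 (0.07) and Lhfpl2 (0.12), and Mertk to Gng12 (0.02), Unc5b (0.03) and Entpd5 (0.04). Tyro3 and Gas6, with folds close to 0, had neighbours within 0.02, among them Ptpn23 and Tmem41b. Grn rose by 1.07 ± 0.18 in callosum and fell by 0.70 ± 0.16 in culture (SE, the authors' deposited table). Flnc did not pass in culture (-0.73 ± 0.60), and Dnase2a did not pass in callosum (0.56 ± 0.20; SE, the authors' deposited table). A distance over 2 comparisons is a description and carries no test.

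Reads of overlapping genes may bear on 2 of the 7. Csf1r shares 873 exon bases with Hmgxb3 on the other strand, and Gas6 shares 34 with Tmem255b on the other strand (GENCODE M21). Hmgxb3 had 56.3 CPM under the Qk-KO label and 53.2 CPM under the WT label in callosum, and 47.1 and 49.8 CPM in that order in culture. Csf1r itself had 0.174 and 0.130 CPM in culture in that order. Tmem255b had 2.33 and 2.00 CPM in callosum and 20.4 and 9.84 CPM in culture in the same order. The strand setting of the counting is not given in the sources used here, so reads of the shared bases cannot be told apart. Gene-level counts also do not separate isoforms, such as secreted and membrane-bound Csf1.

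All calls rest on the normal reference of the deposited score. With the heavier-tailed reference of a test with 6 residual degrees of freedom in callosum and 4 in culture, none of the 7 genes passed in either system, and 0.0401% of all callosum genes and 0% of all culture genes did. The adjusted p over the members called was then 0.130 to 0.218 in callosum and 0.0597 to 0.155 in culture. The 4 differences between systems still passed, with a z test adjusted p up to 0.0205 under that reference, as did 8.27% of all genes (5.34% above 0 and 2.93% below 0).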

How the data were processed

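RNA-seq tables of 8 corpus callosum and 6 culture libraries were used. Tools named in the submitters' processing notes are TopHat2 2.0.14, DESeq2, featureCounts and FastQC, with build mm10. For annotation, strand setting and model, nothing is given in the sources used here. The library columns deposited by the authors are log2 values of a fitted mean plus 1, which was checked: between libraries of a genotype, each gene differs by the same factor (log2 tolerance 1e-09). The authors' mean column is a normalized signal, per the file headers. Log2 fold changes and their SE, the score (fold over SE), p-values and adjusted p-values are as the authors deposited them. The tables run WT over Qk-KO and were turned round. Computed here were fitted CPM, CPM per kb of merged GENCODE M21 exons, the z test between systems, Benjamini-Hochberg adjustment under 5 alternatives, list counts and promoter motifs (Student's distribution among the alternatives; Python 3.11.15, pandas 2.3.3, scipy 1.17.1). The z test was tested on simulated data. Standard errors have a ceiling of 0.54 in callosum and 0.76 in culture, as folds shrunken toward 0 do, so folds of low genes may be understated. Nothing in the labels says that the cultures came from separate animals, so their p-values may measure technical spread. A marker gene of the design's lists is not reported here. Where a symbol stood on more than 1 row of a marker list, the row with the higher mean was used. The design's named-gene rule took the 7 members, Qk, up to 4 called genes per list and direction with the smallest p and the most abundant gene that did not pass, and 3 genes of like folds per member. Il34, Grb2, Sos1, Kit, Flt3, Pdgfrb, Mfge8, Megf10, Gulp1, Pik3cg and Plcg2, the overlapping genes and single markers were named after their values were seen. The members and lists were chosen with earlier results of these data known.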

Additional observations from a re-analysis of the deposited data

Results flagged for a closer look

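The response to the Qk-KO label differed between callosum and culture for 4 genes by the z test of the difference itself, callosum minus culture. The values were 2.47 log2 units for Axl, 1.84 for Csf1, 1.71 for Pros1 and 1.51 for Mertk. Axl, Csf1 and Pros1 rose in callosum and fell in culture, while Mertk passed only in culture. The systems also differ in tissue, time, cell makeup and the agent given, and the part of each in these differences was not tested. Single libraries could not be examined for outlying values, because the columns hold fitted means.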

How the results depend on the processing

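Scaling by library totals, centring on the median of all tested genes, adjusting without the filter on low means and adjusting over genes with a mean of at least 100 left every one of the 22 single values for the 7 genes and Qk with the same direction and the same side of the threshold, and the 3 counts over the 7 genes at 4 each. Calls over the 5 lists moved. In callosum they were 10 without the filter and 7 with a mean of at least 100, where genes with lower means were no longer tested, against 11. In culture they were 20 with scaling by totals (6 higher, 14 lower), 18 without the filter (4 higher, 14 lower) and 21 both with centring and with a mean of at least 100 (5 higher, 16 lower), against 21 (6 higher, 15 lower). Scaling by totals shifted log2 values by 0.02 in callosum and 0.08 in culture. With the Student reference the calls among the 7 genes were 0 in callosum and 0 in culture, against 4 and 4, and calls over the lists were 0 in callosum and 0 in culture, against 11 and 21. That reference raises every p by construction, and its degrees of freedom leave the shared passages out. No paired analysis was possible because the library columns hold fitted means without replicate spread, although each passage gave 1 culture of each label. For the same reason no replicate could be left out and no refit with DESeq2 or edgeR was run. Depth limits Csf1r in culture.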
